A study of Drosophila melanogaster with 24 samples.

Results

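DptA and DptB are the diptericins of Drosophila melanogaster, and they were found as the 2 rows of the deposited gene table, of 17768 genes in all, whose symbols are DptA and DptB. RNA of whole male flies was sequenced as 24 libraries in 6 groups of 4. The groups were homozygous flies (Reldel/Reldel) 4 h after traumatic brain injury, uninjured homozygous flies, injured heterozygous flies (+/Reldel), uninjured heterozygous flies, injured wild-type flies and uninjured wild-type flies. Reldel is a deletion allele of Rel, the gene of the NF-kappaB factor Relish, and it is carried in every cell. Flies of all 6 groups were in a yw background, were aged 1 to 7 days and were kept at 25 °C. The design asks how the Rel genotype changes the transcript response to brain injury. The labels give neither the number of flies per library nor the origin of the 4 libraries of each group (vials, cultures or days). The spread that p-values are based on may therefore be technical.

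Diptericins are small secreted antimicrobial peptides, made mainly by the fat body and released into the hemolymph, that act against Gram-negative bacteria. Their genes are textbook targets of the Imd pathway: peptidoglycan recognition proteins sense bacterial peptidoglycan, the adaptor Imd passes the signal to the caspase Dredd and to an IkappaB kinase complex, and Relish is cleaved, enters the nucleus and switches the genes on. Diptericin RNA is the usual readout of that pathway in the fly.

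The genes lie side by side on the plus strand of chromosome arm 2R in build dm6. DptA (FBgn0004240) spans 2R:18865765-18866260 and is annotated with 1 transcript of 496 bases in 1 exon, with no intron and a protein of 106 residues. DptB (FBgn0034407) spans 2R:18867391-18867895, with 1 transcript of 449 bases in 2 exons, an intron of 56 bases and a protein of 120 residues. The gap between them is 1130 bases. Each gene has a single annotated transcript, whose count equalled the gene's count in 24 of 24 libraries. CG43109, on the minus strand, overlaps the end of DptB by 48 bases. It had 18 counts over all 24 libraries, few beside those of DptB except in uninjured homozygotes, where DptB itself had 5. The sources used here do not say whether counting used strand.

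Library totals ran from 6543632 to 14660491 counts, and 13868 genes were tested, both diptericins among them. Levels are given as CPM, counts scaled to a common effective library size, where 3 counts in a library equal 0.203 to 0.465 CPM. A gene is called when the quasi-likelihood F-test of edgeR gives a Benjamini-Hochberg adjusted p under 0.05. Rel, the deleted gene, had 0 counts in 7 of the 8 homozygous libraries and 1 count in the other, 61.9 ± 19.0 CPM in injured and 38.8 ± 12.4 CPM in uninjured heterozygotes, and 145 ± 22.6 CPM in injured and 69.8 ± 9.84 CPM in uninjured wild type (SD, n = 4 each). All 8 markers on the male list were present in every library, at a summed 5664 to 10146 CPM. The 8 female genes, yolk protein and eggshell genes among them, summed to 3.31 to 11.6 CPM in 23 libraries and to 206 CPM in injured wild-type library 4. That library therefore went against the male label for this list, and the diptericin fold changes that use it are given below with and without it. The ratios, orders, correlations and gene lists are given with it.

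Both diptericins rose after injury in wild-type flies, DptA 7.93-fold and DptB 18.7-fold. DptA had 308, 922, 694 and 406 counts in the injured wild-type libraries (46.9, 70.4, 97.8 and 29.5 CPM), against 154, 62, 35 and 42 counts in the uninjured ones (21.9, 5.003, 2.70 and 3.26 CPM). Every injured library was above every uninjured one, although uninjured library 1, at 21.9 CPM, came close to injured library 4. DptA averaged 61.2 ± 29.6 CPM in injured and 8.21 ± 9.15 CPM in uninjured wild type (SD, n = 4 each), a log2 fold change of 2.99 ± 0.68 (SE; 95% interval 1.57 to 4.40; edgeR adjusted p = 0.0111). DptB had 828, 2045, 1163 and 983 counts in the injured wild-type libraries (126, 156, 164 and 71.5 CPM), against 98, 111, 52 and 26 counts in the uninjured ones (13.9, 8.96, 4.01 and 2.02 CPM). The groups stood far apart for DptB, the lowest injured library lying at 71.5 CPM and the highest uninjured one at 13.9 CPM. DptB averaged 129 ± 41.9 CPM in injured and 7.22 ± 5.33 CPM in uninjured wild type (log2 fold change 4.23 ± 0.69; 95% interval 2.80 to 5.65; edgeR adjusted p = 0.000437). Both members were thus called higher, as were 3.35% of all genes tested, and the groups did not overlap for either, as for 8.5% of all genes in the higher direction.

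**Figure D1:**
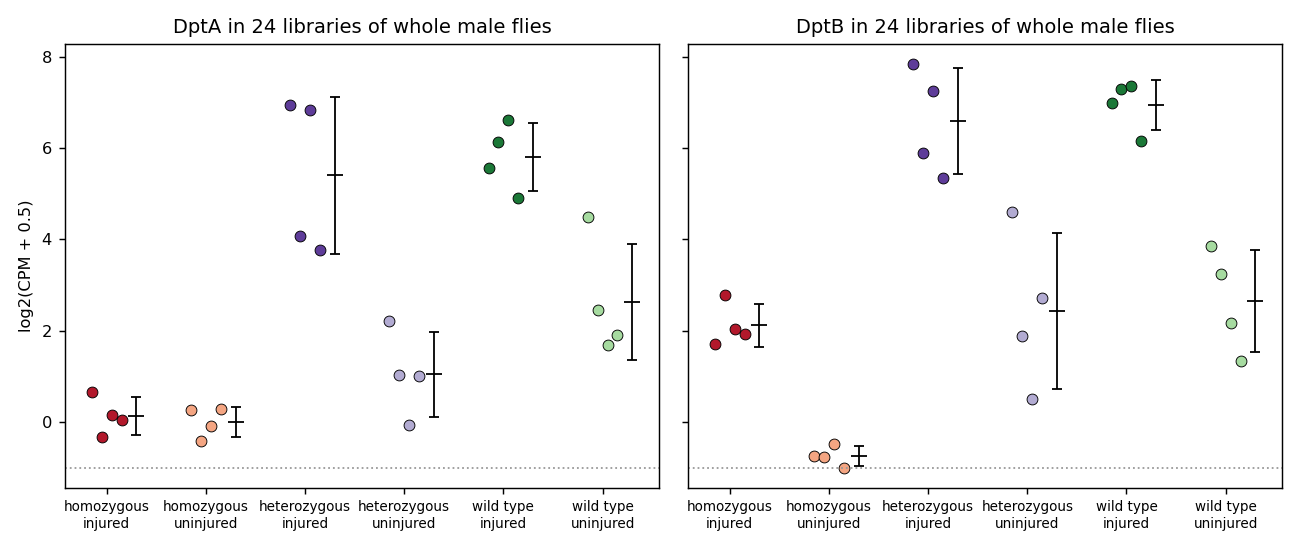
DptA (left) and DptB (right) in the 24 libraries, as log2(CPM + 0.5), by genotype and injury. Points are libraries, bars the group mean ± SD (n = 4) and the dotted line marks 0 CPM. DptA stays low in both homozygous groups, whereas the injured homozygous libraries hold 2.79 to 6.44 CPM of DptB and the uninjured ones 0 to 0.218 CPM.

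Leaving out injured library 4, the one with female genes, gave 3.22 ± 0.71 for DptA (edgeR adjusted p = 0.00893) and 4.43 ± 0.71 for DptB (edgeR adjusted p = 0.000440) on the log2 scale. The DptA call was the less firm: it was lost without uninjured library 3 (edgeR adjusted p = 0.0521) and without uninjured library 4 (edgeR adjusted p = 0.0673), while its log2 fold change was 4.06 without uninjured library 1. RNA was taken from whole flies, so more RNA per cell and more cells of the type that makes it cannot be told apart here or in any comparison below.

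In heterozygous flies both genes also rose, and DptA had 1 of the largest changes of any gene. DptA had 1312, 219, 1418 and 96 counts in the injured heterozygous libraries (123, 16.3, 114 and 13.1 CPM), against 53, 13, 6 and 18 counts in the uninjured ones (4.11, 1.55, 0.456 and 1.51 CPM). The injured libraries fell into a high pair and a low pair 9.44-fold apart at the extremes, yet the low pair still exceeded every uninjured library. DptA averaged 66.8 ± 60.3 CPM in injured and 1.91 ± 1.55 CPM in uninjured heterozygotes (SD, n = 4 each), a 34.6-fold rise (log2 5.11 ± 0.78; 95% interval 3.50 to 6.73; edgeR adjusted p = 0.000273) that ranked 7 among 13868 fold changes. DptB had 2437, 795, 1902 and 295 counts in the injured libraries (229, 59.2, 153 and 40.2 CPM), against 309, 27, 12 and 73 counts in the uninjured ones (23.9, 3.22, 0.913 and 6.12 CPM). The same 2 injured libraries, 1 and 3, were high for both genes, and uninjured library 1 was the highest of its group for both. DptB averaged 121 ± 87.8 CPM in injured and 8.55 ± 10.5 CPM in uninjured heterozygotes, a 13.9-fold rise (log2 3.79 ± 0.67; 95% interval 2.42 to 5.17; edgeR adjusted p = 0.000977). Both members were called higher, against 3.24% of all genes, with no overlap between the groups, against 5.05% of all genes. Uninjured library 1 also had the highest summed level of the 8 hemocyte (blood cell) markers of any library, 645 CPM, against 177 CPM in the lowest. The same was so for the 8 fat body markers, 1525 CPM, against 792 CPM in the lowest. Its neuron markers, at 1291 CPM, were the highest of its group. The part of these markers in the diptericin level was not tested. Without that library the rises were 5.88 ± 0.93 for DptA and 5.15 ± 0.68 for DptB on the log2 scale, both still called.

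In homozygous flies DptB rose after injury, reaching a low level, and DptA gave no detectable change. DptB had 18, 44, 53 and 44 counts in the injured homozygous libraries (2.79, 6.44, 3.59 and 3.31 CPM), against 1, 1, 3 and 0 counts in the uninjured ones (0.0997, 0.0827, 0.218 and 0 CPM). Summed over the group, that is 159 counts in injured homozygotes (95% exact Poisson interval 135 to 186), against 5 in uninjured ones (1.62 to 11.7), intervals that cover counting error only. The lowest injured library held several times the DptB of the highest uninjured one. DptB averaged 4.03 ± 1.64 CPM in injured and 0.1001 ± 0.0898 CPM in uninjured homozygotes (SD, n = 4 each), a log2 fold change of 5.08 ± 1.38 (95% interval 2.22 to 7.93; edgeR adjusted p = 0.0295) that ranked 10 among 13868. Because it rests on 5 uninjured counts, the size of this change is poorly fixed. The call was lost in 6 of the 8 fits that left out 1 library, with edgeR adjusted p from 0.0303 to 0.0874 and a log2 fold change of 4.73 to 5.79.

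DptA had 7, 2, 9 and 7 counts in the injured homozygous libraries (1.09, 0.293, 0.610 and 0.526 CPM), against 7, 3, 6 and 8 counts in the uninjured ones (0.698, 0.248, 0.436 and 0.713 CPM). The libraries overlapped fully, and the means were 0.628 ± 0.333 CPM in injured and 0.524 ± 0.224 CPM in uninjured homozygotes. The log2 fold change was 0.24 ± 1.35 (edgeR adjusted p = 0.939). Its 95% interval, −2.55 to 3.04, spans both a large fall and a large rise. At counts of 2 to 9 a library, this fit could therefore not detect a change of several fold. The fit takes 1 estimate of the spread over all 6 groups. Summed over the group, DptA had 25 counts in injured homozygotes (95% exact Poisson interval 16.2 to 36.9). Uninjured homozygotes had 24 (15.4 to 35.7), and both intervals cover counting error only. In homozygotes 1 of the 2 members was called higher, against 4.71% of all genes, and its groups did not overlap, against 7.37% of all genes. Injured homozygous library 1 had the highest summed level of the 8 neuron markers of all libraries, 2294 CPM, against 754 to 1291 CPM in the other 23. It also had the lowest DptB count of its group, 18. The part of the neuron markers in the result was not tested. Without that library the DptB change was 5.18 ± 1.52 on the log2 scale (edgeR adjusted p = 0.0539). The DptA change was then −0.00246, too near 0 for an SE taken from F to be reliable.

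Set against injured wild type, injured homozygotes had 1.03% of the DptA level and 3.12% of the DptB level. The log2 fold change was −6.62 ± 0.92 for DptA (95% interval −8.52 to −4.72; edgeR adjusted p = 4.15e-05), a 98.5-fold deficit. For DptB it was −5.03 ± 0.73 (95% interval −6.55 to −3.51; edgeR adjusted p = 7.23e-05), a 32.7-fold deficit. Both members were called lower, against 2.35% of all genes. No homozygous library reached any wild-type library for either gene, as was so for 4.9% of all genes in that direction. Leaving out injured wild-type library 4 gave −6.85 for DptA and −5.23 for DptB. The injured homozygous DptB level, 4.03 CPM, equalled 55.8% of the level in uninjured wild type, and the libraries of those groups overlapped.

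The deficit was of like size against injured heterozygotes. It was −6.76 ± 0.92 on the log2 scale for DptA (95% interval −8.66 to −4.85; edgeR adjusted p = 0.000101) and −4.93 ± 0.73 for DptB (95% interval −6.44 to −3.42; edgeR adjusted p = 0.000280). Both were called lower, against 0.757% of all genes, and again no libraries overlapped, against 1.98% of all genes in that direction. These comparisons share the injured homozygous libraries, so they are not separate evidence.

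Injured heterozygotes had 109% of the injured wild-type level of DptA and 93.2% of that of DptB, with Rel itself lower by 1.22 ± 0.22 on the log2 scale (edgeR adjusted p = 0.0113). The log2 fold change of DptA was 0.14 ± 0.61, with a 95% interval of −1.12 to 1.39 (edgeR adjusted p = 1.00). That of DptB was −0.10 ± 0.58, with an interval of −1.29 to 1.10 (edgeR adjusted p = 1.00). Neither member was called, against 0.296% of all genes in either direction, and the 4 heterozygous libraries spread on both sides of the wild-type ones for both genes. Differences within those intervals were not detectable at this spread between libraries. The sign of the DptA difference depends on single libraries, since without injured wild-type library 4 it was −0.09 ± 0.65, and that of DptB was −0.29 ± 0.62.

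**Figure D2:**
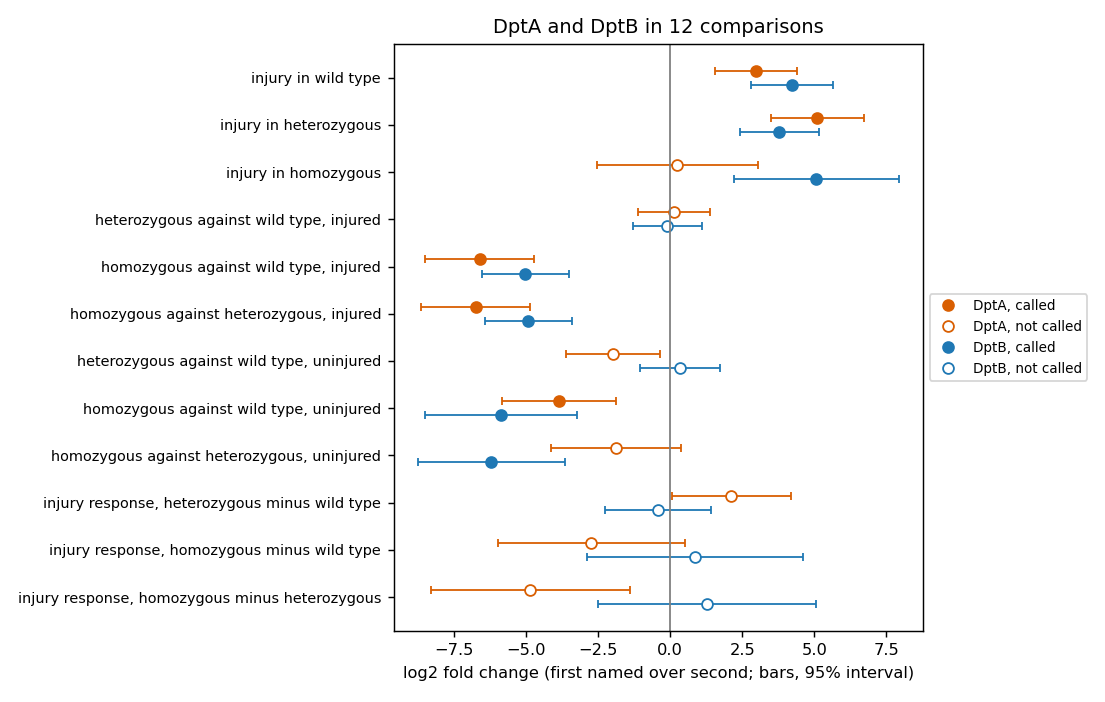
Log2 fold changes of DptA and DptB with 95% intervals in the 12 comparisons fitted with edgeR, the first-named group over the second. Filled points were called at an adjusted p under 0.05, open points were not. In homozygotes the injury change of DptB (5.08) is called and that of DptA (0.24) is not, and all 3 differences of injury responses are open for both genes.

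Without injury, the diptericins of homozygotes were below those of wild type. DptA stood at 6.38% of the wild-type level, a log2 fold change of −3.88 ± 0.96 (95% interval −5.86 to −1.90; edgeR adjusted p = 0.0171). DptB stood at 1.38%, a log2 fold change of −5.88 ± 1.27 (95% interval −8.52 to −3.25; edgeR adjusted p = 0.00589). Both were called lower, against 1.97% of all genes, and the libraries did not overlap, against 5.42% of all genes. The DptA value leans on uninjured wild-type library 1: without it the log2 fold change was −2.81 ± 0.91 (edgeR adjusted p = 0.111). The call was also lost without uninjured homozygous library 2 (edgeR adjusted p = 0.0560) or library 3 (edgeR adjusted p = 0.0663).

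Against uninjured heterozygotes, uninjured homozygotes had less DptB, with a log2 fold change of −6.22 ± 1.23 (95% interval −8.77 to −3.67; edgeR adjusted p = 0.00744). For DptA the change was −1.89 ± 1.08 (95% interval −4.13 to 0.36; edgeR adjusted p = 0.432), with libraries that overlapped. Thus 1 of the 2 members was called lower, against 1.1% of all genes, and its libraries did not overlap, against 4.18% of all genes. The DptB call was lost without uninjured heterozygous library 1, the one with high hemocyte and fat body markers. The log2 fold change was then −4.87 ± 1.21 (edgeR adjusted p = 0.0682).

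Uninjured heterozygotes had 23.2% of the uninjured wild-type DptA level, a log2 fold change of −1.99 ± 0.78 that was not called (95% interval −3.61 to −0.37; edgeR adjusted p = 0.400). They had 118% of the DptB level (log2 0.33 ± 0.67; 95% interval −1.06 to 1.73; edgeR adjusted p = 0.918). Of all genes, 0.498% were called in this comparison. Without uninjured wild-type library 1 the DptA change was −0.92 ± 0.75, and without uninjured heterozygous library 1 the DptB change was −1.01 ± 0.67. The libraries of these groups overlapped for both genes.

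Whether the injury response itself differed between genotypes was asked by the difference of the log2 fold changes. The DptA response of heterozygotes exceeded that of wild type by 2.12 ± 0.99 on the log2 scale (95% interval 0.07 to 4.18; edgeR adjusted p = 1.00). The DptA response of homozygotes was below that of wild type by a difference of −2.74 ± 1.57 (95% interval −5.99 to 0.50; edgeR adjusted p = 0.934). It was below that of heterozygotes by a difference of −4.87 ± 1.67 (95% interval −8.32 to −1.41; edgeR adjusted p = 0.478). For DptB the differences were −0.43 ± 0.89 for heterozygotes minus wild type, 0.85 ± 1.81 for homozygotes minus wild type and 1.28 ± 1.83 for homozygotes minus heterozygotes, with edgeR adjusted p of 1.00, 0.948 and 0.781. None of these 6 differences was called. Without injured wild-type library 4 the differences from wild type were 1.90 (DptA) and −0.62 (DptB) for heterozygotes and −2.97 (DptA) and 0.66 (DptB) for homozygotes, none called. Across all 13868 genes the quasi-likelihood test of edgeR called 0% in each of the 3, although 363, 647 and 1433 genes had an unadjusted p under 0.05. The likelihood ratio test of edgeR called 0, 5 and 1 genes and DESeq2 called 0, 3 and 1, none of which was a diptericin. So a DptA response called in heterozygotes and wild type but not in homozygotes does not by itself show that genotypes differed. In homozygotes, a called DptB response beside an uncalled DptA response compares genes, which these differences do not test. Both differences against wild type share the wild-type libraries, and both homozygous differences share the homozygous ones.

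How much DptB there was for each DptA in the same library needs no scaling between libraries. DptB counts exceeded DptA counts in 18 of 24 libraries. The mean of log2((DptB + 0.5)/(DptA + 0.5)) was 2.63 ± 1.17 in injured homozygotes, −2.13 ± 1.44 in uninjured homozygotes, 1.197 ± 0.66 in injured heterozygotes, 1.62 ± 0.77 in uninjured heterozygotes, 1.15 ± 0.29 in injured wild type and 0.02 ± 0.80 in uninjured wild type (SD, n = 4 each). All 4 injured homozygous libraries held more DptB than DptA, and all 4 uninjured ones held less, so the sign of the ratio was opposite in every library of each group. The difference was 4.76 (two-sided exact permutation test, p = 0.02857, the smallest that 70 assignments of 4 against 4 can give, and 0.0643 adjusted over the 9 pairwise comparisons). In wild type the ratio was higher by 1.13 after injury (exact p = 0.0571, adjusted 0.0857), and in heterozygotes it was lower by a difference of −0.43 (exact p = 0.371, adjusted 0.418).

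**Figure D3:**
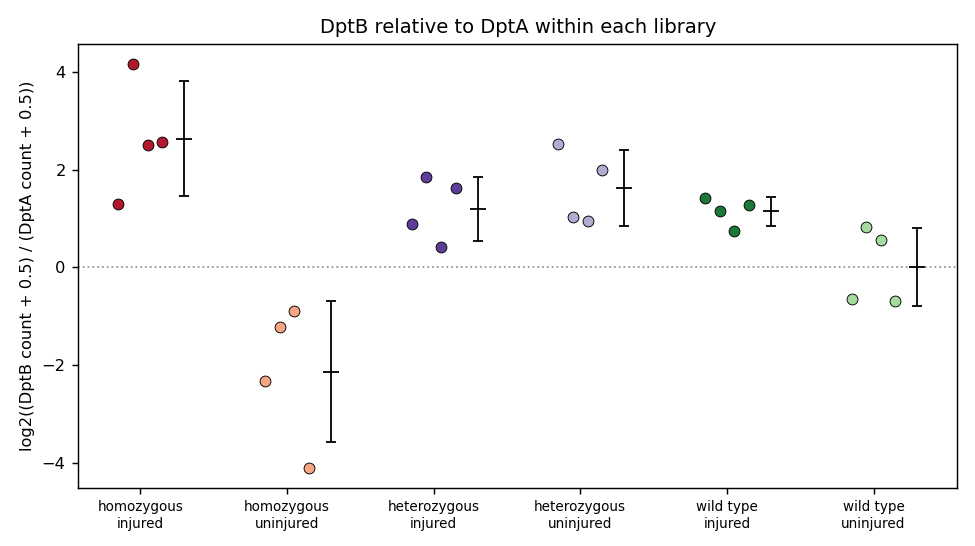
Log2 ratio of DptB to DptA counts, each plus 0.5, within each library. Points are libraries, bars the group mean ± SD (n = 4) and the dotted line marks equal counts. The 4 injured homozygous libraries run from 1.30 to 4.15 and the 4 uninjured ones from −4.09 to −0.89.

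Between uninjured groups the ratios with 0.5 added did not overlap. Homozygotes differed from heterozygotes by −3.75 and from wild type by −2.15, and heterozygotes differed from wild type by 1.61 (exact p = 0.02857 each, adjusted 0.0643). Between injured groups, homozygotes differed from wild type by 1.48 (exact p = 0.0571, adjusted 0.0857) and from heterozygotes by 1.43 (exact p = 0.0857, adjusted 0.110), while heterozygotes and wild type differed by 0.05 (exact p = 0.857, adjusted 0.857). None of the 9 passed after adjustment, and with 4 libraries a group and 9 comparisons a single one could not have. In the uninjured homozygotes both genes are within a few counts of 0, where the added 0.5 sets part of the ratio: with a pseudocount of 5 the injury difference in homozygotes was 2.77 in place of 4.76. With it, uninjured homozygotes differed from uninjured heterozygotes by −2.23 in place of −3.75. From uninjured wild type they differed by −0.83 in place of −2.15 (exact permutation test, adjusted p = 0.220), and those libraries then overlapped.

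The groups fell in 1 order for both genes by mean log2(CPM + 0.5): injured wild type, injured heterozygotes, uninjured wild type, uninjured heterozygotes, injured homozygotes and uninjured homozygotes. By mean CPM the genes did not share that order. DptA was then higher in injured heterozygotes (66.8 CPM) than in injured wild type (61.2 CPM). DptB was higher in uninjured heterozygotes (8.55 CPM) than in uninjured wild type (7.22 CPM). Per kilobase of transcript, DptA averaged 1.27 CPM in injured homozygotes, 1.06 in uninjured homozygotes, 135 in injured heterozygotes, 3.84 in uninjured heterozygotes, 123 in injured wild type and 16.5 in uninjured wild type. DptB averaged 8.98, 0.223, 268, 19.0, 288 and 16.1 CPM per kilobase in the same groups. Per length, then, DptB had the higher mean in each injured group and in uninjured heterozygotes, DptA had it in uninjured homozygotes, and the means were close in uninjured wild type. The order by mean log2(CPM + 0.5) has 5 steps between neighbours for each gene. The groups did not overlap for DptB between injured heterozygotes and uninjured wild type, and between injured and uninjured homozygotes (exact permutation p = 0.02857 each, adjusted over 10 steps 0.143). In the other 8 steps the libraries overlapped, with exact permutation p of 0.0857 to 0.8286. One of them was DptA between injured heterozygotes and uninjured wild type, a difference of 2.77 (exact permutation p = 0.0857). No step passed after adjustment, so the order of neighbours is not settled. With 4 libraries a group, a step that did not pass does not show equal levels.

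Both genes varied between libraries of 1 group more than most genes did. The biological coefficient of variation estimated by edgeR was 0.668 for DptA and 0.657 for DptB, against a median of 0.168 over all tested genes. That put them at percentiles 98.5 and 98.4 of all genes, and 99.1 and 99.6 among the 1000 genes nearest in level. The variation was shared: after the group means were taken out, log2(CPM + 0.5) of DptA and DptB correlated with r = 0.785 over the 24 libraries. Over libraries with the group means left in, r was 0.924. These correlations are descriptions, since both genes are read in the same libraries and the second holds the group differences themselves. Shared variation was not particular to the pair. With the group means taken out, DptA had a median r of 0.652 (0.120 to 0.784) with the 12 other tested antimicrobial peptides listed below. DptB had a median r of 0.683 (0.146 to 0.856) with them.

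**Figure D4:**
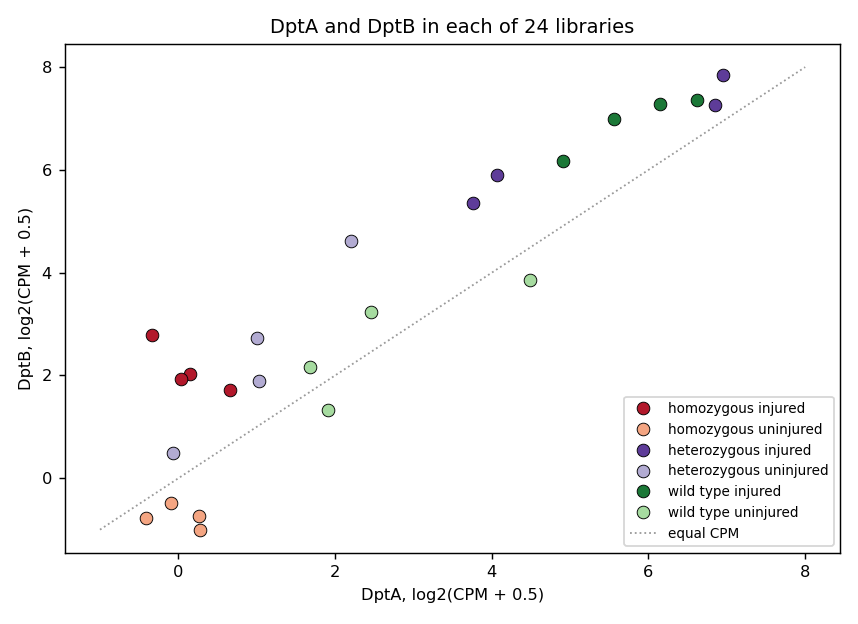
DptB against DptA in each of the 24 libraries, both as log2(CPM + 0.5), coloured by group; the dotted line marks equal CPM. The injured homozygous libraries lie above the line at low DptA, and the uninjured homozygous libraries lie below it.

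By the correlation of log2(CPM + 0.5) over the 24 libraries, the genes most like DptA were AttD (r = 0.952), AttB (0.925), AttC (0.924), DptB (0.924) and CG14499 (0.917). Those most like DptB were AttB (0.9751), AttC (0.973), PGRP-SB1 (0.955), GstD2 (0.930) and CecC (0.926), with DptA next at rank 6. AttB, AttC and AttD encode attacins, another family of secreted antimicrobial peptides, CecC encodes a cecropin, GstD2 a glutathione transferase and PGRP-SB1 a peptidoglycan recognition protein that cuts peptidoglycan. The median gene had r of −0.00245 with DptA and −0.0118 with DptB.

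The genes beside the pair on the chromosome were not called. Of the 3 annotated genes on each side, CG43069, CG43070 and CG43071 lie before DptA, and CG43109, sano and Vha100-3 lie after DptB. CG43109 was too low to test, and the other 5, at means of 1.05 to 148 CPM, were called in 0 of 12 comparisons. Over all genes the highest share called was for injury in homozygotes, 4.71% higher and 1.15% lower. The 3 differences of injury responses called 0%. Having no call among 5 genes is therefore near the share over all genes.

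Markers of cell types were compared between the same groups. The 8 fat body markers, the tissue that makes most diptericin, summed to 957 to 1201 CPM in injured and 948 to 1471 CPM in uninjured homozygotes, 838 to 957 CPM in injured and 921 to 1525 CPM in uninjured heterozygotes, and 792 to 1227 CPM in injured and 934 to 1374 CPM in uninjured wild type, and none was at 0 throughout any group. After injury 1 of the 5 tested, Lpin, was called higher in homozygotes, and Lpin higher and FASN1 lower in heterozygotes. In wild type Lpin gave 0.35 (edgeR adjusted p = 0.237) and FASN1 −0.57 (edgeR adjusted p = 0.105), neither called. Of all genes tested, 4.71% were called higher and 1.15% lower after injury in homozygotes. The shares were 3.24% and 1.5% in heterozygotes, and 3.35% and 0.433% in wild type. Of 7 tested hemocyte markers Hml was called lower after injury in homozygotes (−1.59) and heterozygotes (−1.20). In wild type Hml gave −0.76 (edgeR adjusted p = 0.274), not called. Hml was also called lower in injured homozygotes than in injured wild type (−1.56), where 1.93% of all genes were called higher and 2.35% lower. In that last comparison 2 of 8 neuron markers, nSyb (1.07) and Rdl (0.92), were called higher. Injured homozygous library 1 held 2294 CPM of the neuron markers, against 838 to 1103 CPM in the rest of its group. Injured wild type held 754 to 930 CPM. The weight of that homozygous library in these 2 calls was not tested. The female gene otu was called lower (−2.07) against a group that holds the library with female genes. Of the 8 gut markers the digestive amylase genes were called, close copies whose counts are uncertain. Amy-p was higher after injury in heterozygotes (2.53) and wild type (2.38), Amy-d was higher after injury in heterozygotes (2.43), and no gut marker was called after injury in homozygotes. Uninjured homozygotes had more Amy-p (1.98) and Amy-d (2.46) than uninjured wild type, where 1.99% of all genes were called higher. The gut markers summed to 612 to 4088 CPM in uninjured homozygotes and 226 to 1130 CPM in uninjured wild type. The part of these shifts in the diptericin results was not tested.

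Other antimicrobial peptides give the setting for the diptericins. The list has 13 genes: 4 attacins, 4 cecropins, defensin (Def), drosocin (Dro), drosomycin (Drs), metchnikowin (Mtk) and edin, the last too low to test. The attacin and cecropin genes are close copies, so the split of reads within each family is uncertain. After injury 10 of the 12 tested were called higher in wild type, as were 3.35% of all genes (median log2 fold change 3.32, against −0.01 over all genes), led by Mtk (4.08), CecC (4.66), AttC (4.49) and CecB (4.995). In heterozygotes 11 were called higher, as were 3.24% of all genes (median 3.41, against −0.01 over all genes), led by Drs (3.66), AttC (4.48), AttB (3.82) and Mtk (3.44). The change of DptA in heterozygotes, 5.11, was above that of each of the 12, whose highest was AttC, while those of DptB in heterozygotes (3.79) and of both diptericins in wild type lay within the range of the list.

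In homozygotes 6 of the 12 were called higher after injury and none lower, against 4.71% of all genes called higher. The median was 3.03, or 2.74 over 11 genes with genes at 0 counts set to their bound and 1 gene left out. Mtk, which the Toll and Imd pathways can both induce, rose by 5.91 ± 0.68 on the log2 scale (edgeR adjusted p = 6.23e-06). Drs, the classic output of the Toll pathway, rose by 3.33 ± 0.44 (edgeR adjusted p = 3.69e-05). AttA rose by 6.59 ± 0.89 (edgeR adjusted p = 4.22e-05). Dro had 180 counts in injured and 2 counts in uninjured homozygotes (edgeR adjusted p = 0.000484). AttB (2.74) and AttC (3.61) were called too. AttD, the 4 cecropins and Def were, like DptA, not called. Def gave −1.18 ± 1.18 (edgeR adjusted p = 0.591). At an unadjusted edgeR p under 0.05, 8 of the 12 were higher and 0 lower. The summed level of the 12 was 188, 259, 143 and 132 CPM in injured homozygotes, against 15.3, 14.6, 23.7 and 13.9 CPM in uninjured ones. DptB was thus among the peptides called in homozygotes, and DptA among those that were not.

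**Figure D5:**
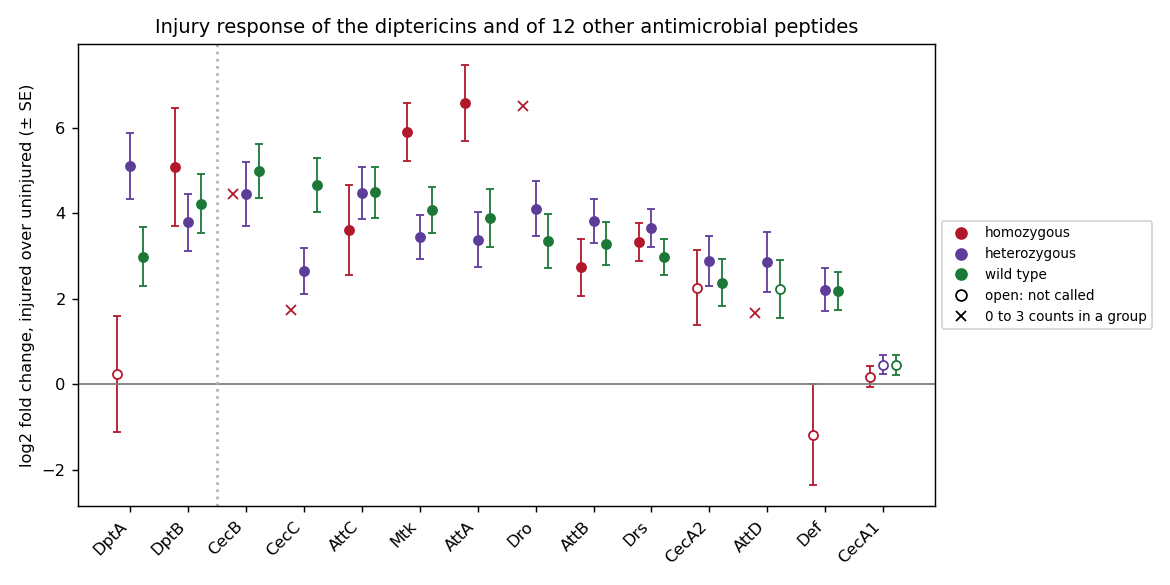
Log2 fold change after injury (± SE) of DptA, DptB and the 12 other tested antimicrobial peptides in homozygous, heterozygous and wild-type flies. Filled points were called by edgeR, open points were not, and crosses are fitted values of genes with 0 to 3 counts in 1 of the groups, which give no size of change. In homozygotes DptA (0.24) and Def (−1.18) are open, and DptB (5.08), Mtk (5.91) and AttA (6.59) are filled.

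Between genotypes, 8 of the 12 other peptides were called lower in injured homozygotes than in injured wild type, against 2.35% of all genes (median −3.41), with Def at −7.39, AttC at −4.91, CecC at −4.89 and AttB at −3.78. DptA at −6.62 and DptB at −5.03 lay toward the lower end of that list. In injured homozygotes against injured heterozygotes 8 were called lower, against 0.757% of all genes (median −2.85). In uninjured homozygotes 9 were called lower than in uninjured wild type, against 1.97% of all genes (median −3.49, or −3.08 with genes at 0 counts set to their bound). That count was 4 or 5 when uninjured wild-type library 1 or 2, or any 1 of the 4 uninjured homozygous libraries, was left out. In uninjured homozygotes against uninjured heterozygotes 3 were called lower, against 1.1% of all genes (median −3.27), and 9 by the likelihood ratio test of edgeR and by DESeq2. With 1 library left out it was 0 (without heterozygous library 1), 1 (without homozygous library 1, 3 or 4), 2 (without heterozygous library 2 or 4 or homozygous library 2) or 6 (without heterozygous library 3). For heterozygotes against wild type edgeR called 0 of the 12 among injured flies (median −0.36), against 0.296% of all genes. Among uninjured flies it also called 0 (median −0.48), against 0.498% of all genes. In each of these, 2 had an unadjusted p under 0.05 and DESeq2 called 1.

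Of 4 receptors and sensors of the Imd pathway, upstream of the diptericins, 1 was called higher after injury in homozygotes, 1 in heterozygotes and 2 in wild type, against 4.71%, 3.24% and 3.35% of all genes. PGRP-SD, a secreted recognition protein, rose after injury in homozygotes (3.45 ± 0.48; edgeR adjusted p = 5.46e-05), in heterozygotes (2.11 ± 0.42; edgeR adjusted p = 0.00342) and in wild type (2.42 ± 0.42; edgeR adjusted p = 0.000911). PGRP-LC, the main membrane receptor of the pathway, was called in wild type alone of the 3 genotypes (0.68 ± 0.16; edgeR adjusted p = 0.0170), with values of 0.23 in homozygotes and 0.21 in heterozygotes that were not called. The quasi-likelihood test of edgeR called no difference of injury responses for it. Of 12 genes of the signalling cascade, 4 were called higher after injury in homozygotes, namely Tab2 (0.56), IKKbeta (0.60), Tak1 (0.49) and key (0.36), all parts of the kinase steps. In heterozygotes 2 were, Tab2 (0.53) and imd (0.50), and in wild type 2, Rel (1.05) and Dredd (0.35). The shares over all genes were again 4.71%, 3.24% and 3.35% in homozygotes, heterozygotes and wild type. The 12 include Rel itself, which is deleted in homozygotes and could not be called higher there. The medians of the cascade were 0.28, 0.24 and 0.22 in homozygotes, heterozygotes and wild type.

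Of 10 negative regulators of the pathway tested, 2 were called higher after injury in homozygotes, 3 in heterozygotes and 3 in wild type, against 4.71%, 3.24% and 3.35% of all genes, and none lower. PGRP-LB, an amidase that degrades peptidoglycan, and pirk, which binds the receptor, rose after injury in homozygotes (1.08 and 1.14), in heterozygotes (1.44 and 1.48) and in wild type (1.56 and 1.89). PGRP-SB1 rose in heterozygotes (2.95) and wild type (3.67). In injured homozygotes against injured wild type 4 were lower, PGRP-SB1 (−3.21), pirk (−1.64), PGRP-LB (−0.86) and PGRP-SC1b (−5.05), against 2.35% of all genes. Against injured heterozygotes 2 were, PGRP-SB1 (−3.16) and PGRP-LB (−0.86), against 0.757% of all genes. Among these feedback genes the call for PGRP-SC1b, a further amidase whose close copy PGRP-SC1a leaves its counts uncertain, had a value close to that of DptB (−5.03).

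The authors' deposited gene tables, which give the uninjured over the injured group, list DptA at −5.15 in heterozygotes (adjusted p = 1.95e-10) and −2.84 in wild type (adjusted p = 1.34e-05). For DptB the authors' deposited tables give −5.12 in homozygotes (adjusted p = 3.55e-17), −3.84 in heterozygotes (adjusted p = 1.48e-05) and −4.15 in wild type (adjusted p = 4.06e-19). These negative values mean higher after injury, and DptA has no row in their homozygous table. Their comparison of homozygous with wild-type injured flies runs as wild type over homozygotes, where the authors' deposited table gives 6.57 for DptA and 4.997 for DptB. Sizes were close to those computed here, while the adjusted p-values in the authors' tables were smaller.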

How the data were processed

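The authors deposited RSEM expected counts per gene and per transcript, and comparison tables with log2 fold changes and adjusted p-values. The submitters' processing notes name build dm6, edgeR 3.10.5, STAR 2.4.2a, CASAVA and RSEM 1.2.22. The annotation and the use of strand are not given in the sources used here. The deposited expected counts held 0 values that were not whole, and 0 columns were of other samples. Gene counts were tested with edgeR 4.0.16 (quasi-likelihood F-test, two-sided, TMM factors, filterByExpr, 1 mean per group over 24 libraries, 18 residual degrees of freedom) in R 4.3.3. Adjustment was over all 13868 genes tested. Each SE is the absolute log2 fold change divided by the square root of F. Ratios and group orders were tested with exact permutations (SciPy). The fit was tested on simulated data. Coordinates come from Ensembl release 115, and transcripts were matched through it. Named genes are the diptericins, Rel, up to 4 called members per list and comparison by smallest adjusted p (Def and the uncalled PGRP-LC values were added after values were seen), the 5 most correlated genes and the 3 neighbours on each side. Members and lists were chosen with earlier results of these data known. Reads can be PCR copies of 1 molecule, so Poisson intervals cover counting error only. Alternatives were DESeq2 1.42.0 and its size factors, a likelihood ratio test, no filter, robust shrinkage, a replicate block, fewer libraries, the transcript table, other pseudocounts, and each library left out.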

Additional observations from a re-analysis of the deposited data

Results flagged for a closer look

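Of 18 groups of 4 libraries examined for a library far from the rest, 1 was found. DptA in uninjured wild-type library 1 stood at 21.9 CPM, against 2.70 to 5.003 CPM in the other 3, a gap of 0.880 of the group's range, which is above Dixon's 95% critical value for 4 samples. Chance alone gives such a gap in about 1 in 20 groups. DptB in the same library, at 13.9 CPM, was the highest of its group but was not set apart in this way. Without the library, the DptA injury change in wild type was 4.06 and the change of uninjured homozygotes against uninjured wild type was −2.81 on the log2 scale, the second no longer called.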

How the results depend on the processing

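Over the settings and left-out libraries, 490 values kept their direction and their side of the threshold, 15 lost a call and 15 changed sign. Both diptericins stayed called in every run for the injury rise in heterozygotes and for injured homozygotes against injured wild type and heterozygotes, as did DptB for injury in wild type and for uninjured homozygotes against wild type. The DptB injury change in homozygotes was 5.08 with robust shrinkage (adjusted p = 0.0565), and the DptA change in wild type 2.91 in the transcript table (0.0917). DptB in uninjured homozygotes against heterozygotes was −6.22 with only the libraries of the comparison (0.0538), where DptA in homozygotes under injury and in uninjured homozygotes against heterozygotes was too low to be tested. The cause of these changes was not tested. Same-numbered libraries correlated at −0.494 to 0.415 in their deviations from group means and 5 of 24 were closest to their own number, so the numbers do not pair them; with number as a replicate block DptA in injured heterozygotes against wild type was −0.34 (0.998), and no diptericin call changed. With 1 library left out, ranges were 2.66 to 4.06 for DptA injury in wild type, −4.19 to −2.81 for DptA in uninjured homozygotes against wild type, 4.73 to 5.79 for DptB injury in homozygotes and −6.93 to −4.87 for DptB in uninjured homozygotes against heterozygotes. Uncalled values that changed sign ranged from −0.34 to 0.49 (DptA) and −0.61 to 0.20 (DptB) for injured heterozygotes against wild type, −1.01 to 0.80 for DptB in uninjured heterozygotes against wild type, −0.94 to 0.92 and −0.0679 to 1.999 for the DptB response of heterozygotes minus wild type and homozygotes minus heterozygotes, −0.00246 to 0.44 for DptA injury in homozygotes, and −0.17 to 0.31 for the ratio in injured heterozygotes against wild type. Genes called moved most with the test and the libraries used: with only the libraries of the comparison, 278 in place of 658 for injury in heterozygotes, 353 in place of 813 in homozygotes, 21 in place of 41 and 33 in place of 69 for injured and uninjured heterozygotes against wild type, 284 in place of 594 for injured homozygotes against wild type, and 57 in place of 126 and 95 in place of 191 for injured and uninjured homozygotes against heterozygotes. The likelihood ratio test gave 79, 125, 192 and 359 for injured and uninjured heterozygotes against wild type and injured and uninjured homozygotes against heterozygotes, and DESeq2 gave 72 and 143 for the first pair and 388 for the last. With 1 library left out, calls ran from 380 to 1495 for injury in heterozygotes, 484 to 1582 in homozygotes and 302 to 450 in wild type (525 with all), 24 to 39 and 33 to 150 for injured and uninjured heterozygotes against wild type, and 107 to 607 for uninjured homozygotes against heterozygotes. Other peptides called were 7 in place of 11 for injury in heterozygotes and 5 in place of 8 for injured homozygotes against heterozygotes with only the libraries of the comparison. Counts of 2 to 9 a library for DptA, and of 0 to 3 for DptB without injury, limit both genes in homozygotes.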
